A study of Homo sapiens with 6 samples.

Results

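Syndecans (SDC1 to SDC4) and glypicans (GPC1 to GPC6) are the core proteins that hold most heparan sulfate on the surface of animal cells. These 10 genes were taken by name from the 33451 genes listed in the counts of an mRNA sequencing experiment, and the family was chosen on the measured values: SDC3 had the smallest p among the 8859 tested genes with a positive log2 fold change. The values of SDC3 are therefore given as a description with no test, and the other members were taken as its relatives, whatever they showed. The cells were MDA-MB-453, an established human breast cancer line of luminal type with high ERBB2. They were kept for 5 days with 100 nM 25(OH)D (25-hydroxyvitamin D, the circulating form of vitamin D) or with the alcohol solvent as the control, and 3 libraries were sequenced from each group. All cells were of the same line, with no gene altered, and the comparison asks which mRNAs respond to 25(OH)D in them. The methods call the libraries biological replicates, and nothing further is said of separate cultures, so each p measures the spread between these libraries.

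Heparan sulfate is a long sugar chain that is built in the Golgi on serines of a core protein, and its sulfate groups bind growth factors, morphogens, chemokines and matrix proteins. Syndecans cross the membrane and carry a short cytoplasmic tail that reaches PDZ proteins, kinases and the actin cytoskeleton, whereas glypicans are held on the outer leaflet by a lipid anchor. Both can be cut from the cell surface, and both act as co-receptors in breast epithelium, where SDC1 is the main epithelial syndecan. SDC3 is best known from neurons and developing muscle, SDC2 from mesenchymal cells and SDC4 from focal adhesions. 25(OH)D is a weak ligand of the vitamin D receptor, and cells with CYP27B1 can convert it to the active hormone.

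The libraries held 33268860 to 40928176 counts, and mitochondrial genes took 7.85% to 7.99% of them in control and 8.89% to 9.24% in 25(OH)D. Mitochondrial share therefore moved with the groups, and its part in the results was not tested. The luminal markers FOXA1, ERBB2, KRT8, KRT18, EPCAM, SPDEF and GATA3 were all expressed, with KRT8 at 61892 to 70501 counts in control and 59958 to 70152 counts in 25(OH)D. They were not all steady. At an adjusted p under 0.05 in edgeR, GATA3 (log2 fold change -0.80) and FOXA1 (-0.46) were lower with 25(OH)D. SPDEF (0.40), ERBB2 (0.22), KRT8 (0.14) and KRT18 (0.10) were higher, and EPCAM (0.072) did not pass. Levels between genes are given as RPKM (counts scaled to exon length and library total). Markers of other cell types were near the floor: the 4 leukocyte markers summed to 0.0621 to 0.252 RPKM in control and 0.0903 to 0.118 in 25(OH)D, the 3 endothelial markers to 0.0354 to 0.0546 and 0.0133 to 0.0425, and the 3 basal markers to 0.105 to 0.177 and 0.187 to 0.396. The 5 fibroblast markers summed to 3.75 to 4.03 and 3.19 to 3.47 RPKM, nearly all from COL1A1, since DCN, LUM and PDGFRB had at most 6 counts in any library. CDH5 had no row, CD3E had 2 counts in all and LUM had counts in 1 library. In such bulk samples fewer cells of a type and less RNA per cell cannot be told apart.

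SDC3, whose long extracellular part carries both heparan sulfate and a mucin-like stretch, lies on the minus strand at chr1:30869467-30908761 (GRCh38). Control cells gave 446, 431 and 388 counts and 25(OH)D cells 8589, 9418 and 8063. Scaled to library size with TMM factors (CPM), these were 10.7, 11.4 and 10.5 against 244, 245 and 247. All 3 treated libraries lay close together and far above every control library. The mean rose from 10.9 ± 0.453 to 245.6 ± 1.65 CPM (SD, n = 3), a log2 fold change of 4.50, or 22.6-fold, and the lowest treated library was 20.7 times the highest control library in RPKM. SDC3 was chosen for this contrast, so these values carry no p. The gene next after it by p among rises was TRPV6, an epithelial calcium channel and vitamin D receptor target, at 71.6 ± 1.63 CPM in control and 792 ± 13.3 CPM in 25(OH)D, an 11.1-fold difference. By size alone SDC3 did not lead, since 60 tested genes had a larger log2 fold change.

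The 250 bases before the RefSeq start of SDC3 (GRCh38.p14, minus strand, chr1:30908759-30909008) are shown because this gene differed most among the members, beside those of SDC1 (minus strand, chr2:20225476-20225725, the upstream one of 2 listed starts) and SDC4 (minus strand, chr20:45348425-45348674), the syndecan whose level did not pass the test. Capitals mark the vitamin D receptor half-sites searched on either strand, which were AGGTCA and its variants AGTTCA, then GGGTCA, and lastly GGTTCA.
SDC3: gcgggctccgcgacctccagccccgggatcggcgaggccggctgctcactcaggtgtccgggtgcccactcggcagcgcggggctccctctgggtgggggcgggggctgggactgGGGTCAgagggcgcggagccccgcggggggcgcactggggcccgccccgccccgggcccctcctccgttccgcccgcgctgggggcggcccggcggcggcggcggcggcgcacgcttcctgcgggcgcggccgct
SDC1: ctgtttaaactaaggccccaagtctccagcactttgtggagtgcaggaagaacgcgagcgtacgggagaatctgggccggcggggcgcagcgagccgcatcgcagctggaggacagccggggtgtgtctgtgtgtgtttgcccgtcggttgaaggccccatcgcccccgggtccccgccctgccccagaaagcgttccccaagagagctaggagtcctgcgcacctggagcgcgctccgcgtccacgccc
SDC4: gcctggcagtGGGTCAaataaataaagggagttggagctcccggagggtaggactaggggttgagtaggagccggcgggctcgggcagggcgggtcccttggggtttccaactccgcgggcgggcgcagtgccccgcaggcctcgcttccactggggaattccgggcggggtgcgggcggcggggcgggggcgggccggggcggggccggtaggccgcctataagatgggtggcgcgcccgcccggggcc
SDC3 and SDC4 each held 1 half-site (GGGTCA) in this window and SDC1 none. A half-site stood in 33.8% of the 35116 promoter windows of the same length. The receptor's usual full site, 2 half-sites on the same strand with 3 bases between them, stood in 0.0655% of all windows and in none of the 8 members matched in the table. G and C made up 83.6% of the SDC3 window, 66.4% of that of SDC1 and 73.6% of that of SDC4. A match in these letters is a description and not a bound site, and a window without one says only that these letters are not there.

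**Figure D1:**
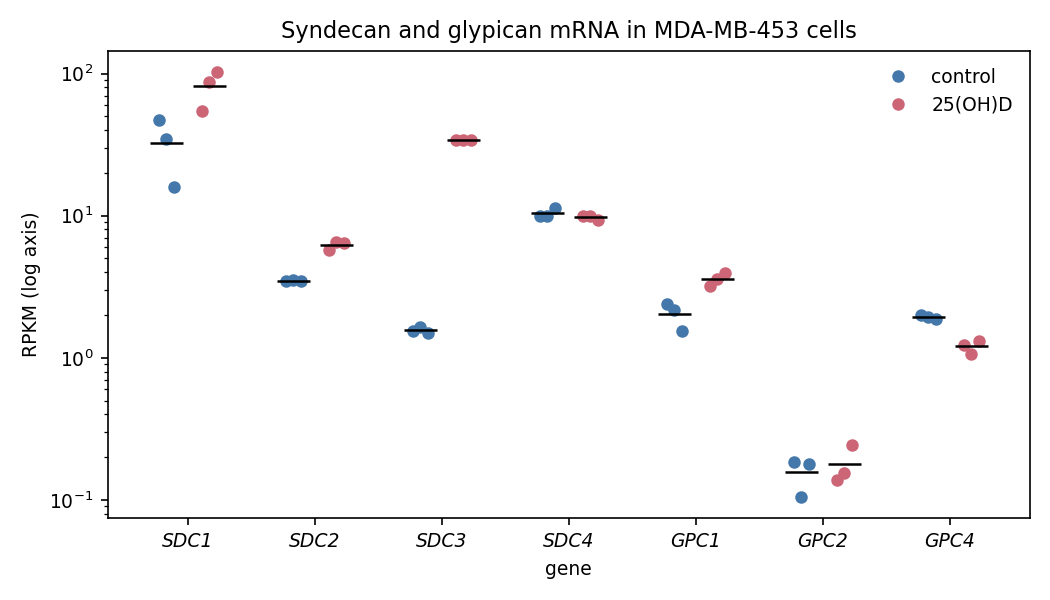
RPKM of the 7 tested members in each library, on a log axis. Points are libraries (3 control, 3 with 25(OH)D) and horizontal bars are group means. SDC3 went from a mean of 1.56 to 34.2 RPKM, while the points of SDC4 and GPC2 overlap between groups.

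SDC1, the main epithelial syndecan, lies at chr2:20200797-20225433 (GRCh38, minus strand) and was higher with 25(OH)D. Control cells gave 167, 123 and 57.0 CPM, and cells with 25(OH)D 200, 319 and 377 CPM. The groups did not overlap, but they came close, since the lowest treated library was 1.16 times the highest control library in RPKM. The log2 fold change was 1.37 (SE 0.282, 95% interval 0.76 to 1.97), with an adjusted p of 0.00165 in edgeR's quasi-likelihood test. On log2(RPKM + 1) with limma the call was lost, at a log2 fold change of 1.38 and an adjusted p of 0.111, the highest of all alternatives, while the other tests on counts kept it.

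SDC2, the syndecan of mesenchymal cells, rose in every treated library. It lies at chr8:96493351-96611780 (plus strand), and it had 642, 599 and 576 counts in control against 938, 1152 and 962 in 25(OH)D. Its log2 fold change was 0.88 (SE 0.0715, 95% interval 0.72 to 1.03) with an adjusted p of 2.99e-07 in edgeR, and the CPM of its control libraries lay within 1.03 times of each other. SDC4, the syndecan of focal adhesions (chr20:45325288-45348424, minus strand), gave 25.5, 25.6 and 29.1 CPM in control and 26.7, 26.1 and 24.7 CPM in 25(OH)D. The groups overlapped, and the log2 fold change was -0.049 (SE 0.0720, adjusted p = 0.651 in edgeR), with a 95% interval from -0.20 to 0.11. Within the syndecans the fitted ratios of 25(OH)D to control were thus 22.6 for SDC3, 2.58 for SDC1, 1.84 for SDC2 and 0.967 for SDC4.

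Among glypicans, GPC1 and GPC4 moved in opposite directions. GPC1, a glypican known to be raised in breast and pancreatic carcinoma (chr2:240435671-240468078, plus strand), gave 15.4, 13.8 and 9.89 CPM in control and 21.2, 23.5 and 26.5 CPM in 25(OH)D. All treated libraries lay above all control libraries, and the log2 fold change was 0.86 (SE 0.132, 95% interval 0.58 to 1.14, adjusted p = 1.43e-04 in edgeR). GPC4, known as a modulator of Wnt and growth factor signalling (chrX:133300103-133415490, minus strand), gave 9.70, 9.47 and 9.18 CPM in control and 6.26, 5.36 and 6.63 CPM in 25(OH)D. Every treated library lay below every control library. GPC4 fell by 0.64 on the log2 scale (SE 0.112, 95% interval -0.88 to -0.40, adjusted p = 4.47e-04 in edgeR), and it was the single tested member called lower.

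The remaining glypicans were scarce. GPC2, a glypican of the developing nervous system (chr7:100169606-100177372, minus strand), had 29, 15 and 25 counts in control and 19, 23 and 31 in 25(OH)D. Its groups overlapped (log2 fold change 0.23, SE 0.385, 95% interval -0.60 to 1.05, adjusted p = 0.697 in edgeR). GPC3, an oncofetal glypican of liver tumours (chrX:133535745-133985895, minus strand), had 3, 2 and 1 counts in control and 9, 1 and 2 in 25(OH)D. GPC6 (chr13:93226842-94407401, plus strand) had 10, 8 and 4 counts in control and 0, 0 and 2 in 25(OH)D. Neither passed the filter on low counts, so neither was tested. The ratio of summed counts, 25(OH)D over control, was 2.19 for GPC3 (exact 95% binomial interval 0.761 to 7.11) and 0.0996 for GPC6 (0.0113 to 0.405). In every library more genes had exactly 2 counts than 1, and 66.8% to 69.8% of counts from 1 to 10 were even, which is what counting both ends of a fragment leaves. With the counts of each gene halved, the intervals widened to 0.468 to 13.5 for GPC3 and 0.00231 to 0.685 for GPC6, and all of these cover counting error only. GPC6 also shares 476 exon bases with the antisense gene RP11-632L2.2, and the strand setting of the counting is not stated. GPC5 had no row, and the table lists only genes with at least 1 count over the 6 libraries.

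Of the 10 members, 9 were listed and 7 tested. Among the 6 tested members other than SDC3, 3 were called higher (SDC1, SDC2 and GPC1), 1 lower (GPC4) and 2 were not called (SDC4 and GPC2) at an adjusted p under 0.05. Over all 18183 tested genes, 17.3% were called higher and 16.5% lower. The 4 called members also had CPM values that did not overlap between the groups, which also held for 45.7% of all tested genes. By the limits the study used, a log2 fold change over 1 in size and an unadjusted p under 0.05, 1 of the 6 was higher (SDC1) and 0 lower, against 4.02% and 2.63% of all tested genes. With only 6 members these shares are counts of single genes, and SDC3 itself was left out of them since it was chosen on the same contrast.

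Per exon length, SDC1 was the most abundant member in both groups, at 32.7 ± 15.7 RPKM in control and 81.7 ± 24.7 RPKM in 25(OH)D. In control the order went on with SDC4 (10.4 ± 0.747), SDC2 (3.50 ± 0.0488), GPC1 (2.03 ± 0.451), GPC4 (1.93 ± 0.0616), SDC3 (1.56 ± 0.0700), GPC2 (0.156 ± 0.0444), GPC6 (0.0293 ± 0.0110) and GPC3 (0.0190 ± 0.00850), all as RPKM. GPC1 and GPC4 overlapped in these libraries, as did GPC6 and GPC3, and no other neighbours did. With 25(OH)D, SDC3 came second at 34.2 ± 0.243 RPKM, above SDC4 (9.73 ± 0.402), SDC2 (6.23 ± 0.409), GPC1 (3.58 ± 0.395), GPC4 (1.21 ± 0.122), GPC2 (0.179 ± 0.0564), GPC3 (0.0414 ± 0.0448) and GPC6 (0.00310 ± 0.00537). No neighbours overlapped in this group, but GPC3 and GPC6 parted only by 0.00951 against 0.00929 RPKM. These were 1 count of GPC3 and 2 counts of GPC6, so their order is not settled. SDC3 thus went from the sixth place to the second, past SDC4, SDC2, GPC1 and GPC4.

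Summed over the 9 listed members, the RPKM was 66.7, 54.2 and 35.8 in control and 108.9, 143.6 and 158.3 in 25(OH)D, a ratio of means of 2.62. Without SDC3 the ratio was 2.03. The make-up of the sum changed with it. SDC3 supplied 2.31%, 3.02% and 4.20% of the sum without 25(OH)D, against 31.2%, 23.9% and 21.7% with it. SDC1 supplied 59.8% ± 13.5 in control and 58.7% ± 7.73 in 25(OH)D, a difference smaller than the spread between libraries. SDC4 supplied 21.6% ± 8.69 in control and 7.32% ± 1.70 in 25(OH)D while its own RPKM hardly differed. The glypicans together gave 4.65, 4.25 and 3.60 RPKM in control and 4.66, 4.81 and 5.56 RPKM in 25(OH)D, with groups that met at 4.65 and 4.66, and their share was 8.29% ± 1.59 and 3.72% ± 0.495. Since SDC3 was chosen for its rise, its share and the family sum with it are descriptions, and mRNA levels give no protein or chain levels.

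**Figure D2:**
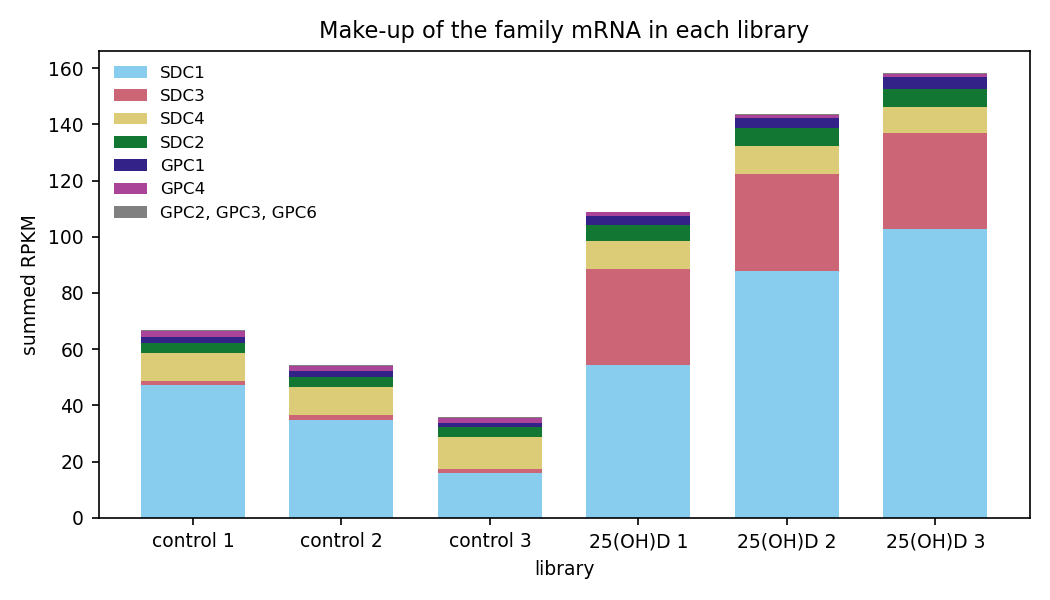
Summed RPKM of the 9 listed members in each of the 6 libraries, divided by gene. The bars run from 35.8 to 66.7 in control and from 108.9 to 158.3 in 25(OH)D, and the SDC3 part grew from 3.18% of the sum on average to 25.6%.

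Among the 6 members with a mean of at least 100 counts, SDC1 and GPC1 varied most between libraries of 1 group. The SD of log2 CPM within groups was 0.656 for SDC1, and 39 of the 12703 tested genes with a mean of at least 100 counts had a larger one. GPC1 had an SD of 0.261, exceeded by 616 of these genes, against a median of 0.0910 over all of them and 0.0424 for SDC3. Within each group the libraries stood in the same order for both genes. Control library 3 was lowest and library 1 highest in both, and among the treated libraries 1 was lowest and 3 highest in both. Over the 6 libraries the deviations of SDC1 and GPC1 from their group means had a Pearson r of 0.985, given as a description with no p, because the pair was picked after its values were seen and shares its libraries. SDC2, SDC4 and GPC4 had SDs of 0.0657, 0.0861 and 0.115.

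**Figure D3:**
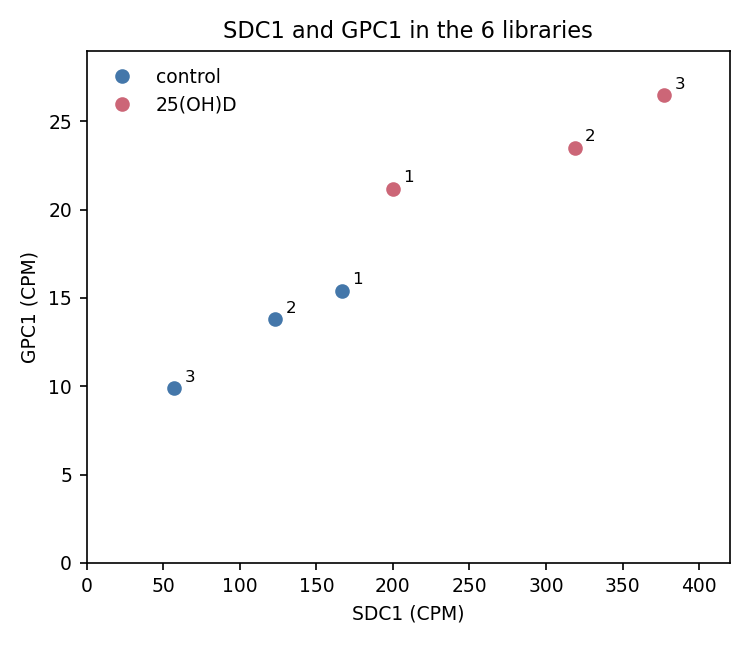
CPM of SDC1 (x axis) against GPC1 (y axis) in the 6 libraries, numbered by replicate within each group. Control libraries run from 57.0 to 167 CPM of SDC1 and treated ones from 200 to 377, and in each group the library with more SDC1 also had more GPC1.

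Among the tested genes most like SDC3 over the 6 libraries were RET, DOCK1 and NBPF12, each with a Pearson r of 0.9999 on log2 CPM, and P2RY2 with 0.9998. Their log2 fold changes were 3.39, 1.83, 1.86 and 2.15. These values describe a shared difference between the groups with little spread within them, and all genes share the same 6 libraries.

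The wider heparan sulfate system was followed through 10 lists of genes, from the sugar linkage to the receptors. Of 154 genes in them, 147 were listed and 112 tested, and 32 of these (28.6%) were called higher and 20 (17.9%) lower, against the 17.3% and 16.5% of all tested genes. Of the called genes, NDST4, SULF1 and HS3ST3B1 reached the filter's level of 0.271 CPM in libraries of 1 group only, so they had to differ once they had passed it, and they are given as descriptions with no p. Without these 3, 30 of 109 (27.5%) were called higher and 19 (17.4%) lower. The median log2 fold change was 0.070 over the pooled lists and -0.011 over all tested genes. Higher and lower shares by list, without those 3 genes, were 20% and 10% (linkage), 37.5% and 0% (sulfation) and 44.4% and 0% (trimming). They were 81.8% and 0% (donors), 38.5% and 7.69% (chondroitin), 12.5% and 0% (other core proteins) and 18.2% and 27.3% (cytoplasmic partners). The rest were 10% and 30% (shedding), 7.14% and 35.7% (ligands) and 13.3% and 40% (receptors), beside 17.3% and 16.5% of all tested genes.

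**Figure D4:**
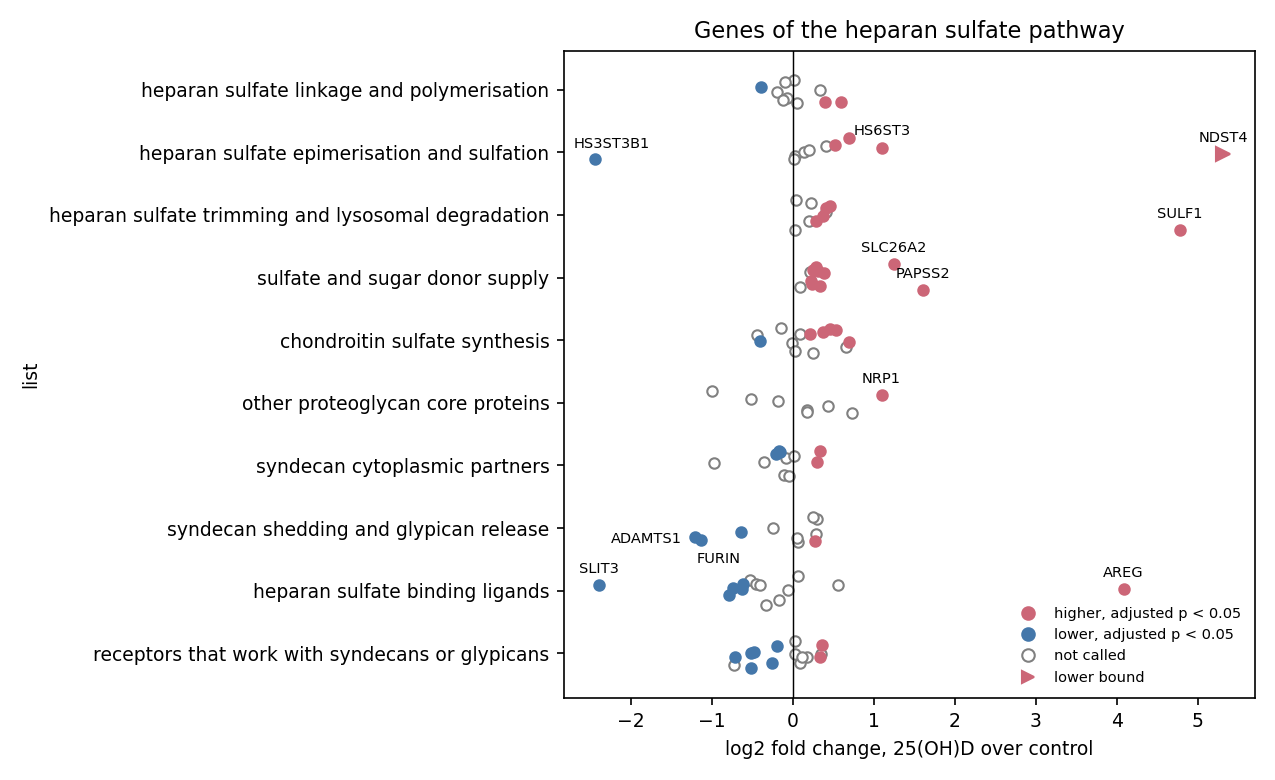
Log2 fold change, 25(OH)D over control, of the tested genes of 10 lists (1 row each). Filled points passed an adjusted p of 0.05 in edgeR, open points did not, and the triangle is the bound for NDST4 at a floor of 3 control counts. NDST4, like SULF1 and HS3ST3B1, passed the low-count filter through 1 group only. In the row of donor supply all 11 points lie above 0, and among the ligands 11 of 14 lie below it.

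Building the chain starts with a linkage of xylose, galactose and glucuronic acid, which the exostosins then extend. Of 10 tested genes of this list, 2 were called higher, 1 lower and 7 not called, with a median log2 fold change of -0.031. EXT2, a subunit of the polymerase, rose from 30.5 ± 1.40 to 40.0 ± 1.10 CPM (log2 fold change 0.39, SE 0.0604, adjusted p = 1.54e-04). B3GALT6, which adds the second galactose, went from 5.41 ± 0.718 to 4.10 ± 0.380 CPM (log2 fold change -0.40, SE 0.144, adjusted p = 0.0455), and this call was lost without control library 1, at a log2 fold change of -0.28 and an adjusted p of 0.204, and in 7 of the other alternatives (adjusted p from 0.0266 to 0.204 over all of them). XYLT2, which starts the chain and was the most abundant of the list, had 53.9 ± 2.87 CPM in control and 55.9 ± 4.92 CPM in 25(OH)D (adjusted p = 0.612).

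Epimerisation and sulfation then shape the binding sites on the chain. Of 16 genes, 13 were listed and 10 tested, and 4 were called higher, 1 lower and 5 not called, or 3 higher and 0 lower of 8 without NDST4 and HS3ST3B1, with a median log2 fold change of 0.30 either way. HS6ST3, a 6-O-sulfotransferase best known from the nervous system, had 597, 581 and 503 counts in control and 1046, 1214 and 1021 in 25(OH)D (log2 fold change 1.10, SE 0.0716, adjusted p = 2.73e-08). HS6ST1 (log2 fold change 0.69, adjusted p = 1.47e-06) and HS2ST1 (0.51, adjusted p = 1.19e-04) also rose, while HS6ST2, the most abundant of the list, had a log2 fold change of 0.014 (adjusted p = 0.873). NDST4, an N-deacetylase and N-sulfotransferase, had 0 counts in every control library and 36, 40 and 33 counts in the treated ones. With the control group set at a floor of 3 counts, the difference was at least 39.8-fold. With a floor of 3 fragments counted at both ends, this bound would be lower. In the opposite direction HS3ST3B1, a 3-O-sulfotransferase, had 32, 30 and 24 counts in control and 4, 2 and 8 counts in 25(OH)D (log2 fold change -2.44). HS3ST3B1 shares 8.16% of its 100-base stretches with HS3ST3A1, so their reads may be split between them. NDST4 and HS3ST3B1 were scarce, with means of at most 1.03 and 0.738 CPM in any group.

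Trimming at the surface and breakdown in lysosomes gave 5 genes called higher, 0 lower and 5 not called among 10 tested, with a median log2 fold change of 0.32, or 4 higher of 9 with a median of 0.28 without SULF1. SULF1, which removes 6-O-sulfates outside the cell, had 8, 5 and 0 counts in control and 135, 102 and 96 in 25(OH)D (log2 fold change 4.78), again at a low level of 3.15 ± 0.619 CPM in treated cells. Smaller rises were seen in the lysosomal enzymes ARSG (0.40), HGSNAT (0.37) and IDS (0.28), as log2 fold changes with adjusted p-values from 5.00e-05 to 0.0324. GUSB, the most abundant of the list, had 30.3 ± 1.32 CPM in control and 30.9 ± 1.98 CPM in 25(OH)D (adjusted p = 0.778).

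A further list holds genes that make the sulfate and sugar donors and carry them into the Golgi. Of 11 tested genes, 9 were called higher, 0 lower and 2 not called (SLC26A1 and SLC35B2), with a median log2 fold change of 0.28. PAPSS1, which makes the sulfate donor PAPS and was the most abundant, went from 73.2 ± 6.13 to 85.6 ± 0.892 CPM (log2 fold change 0.22, adjusted p = 0.00798, lost with limma on RPKM at 0.126 to 0.134). Its scarce paralogue PAPSS2 went from 17, 13 and 11 counts to 27, 42 and 45 (log2 fold change 1.61, SE 0.371, adjusted p = 0.00370, lost with limma at a pseudocount of 0.1 with 0.0656). UGDH, which makes UDP-glucuronic acid, rose from 23.9 ± 1.41 to 29.6 ± 0.985 CPM (log2 fold change 0.31, adjusted p = 0.00238). SLC26A2, a sulfate transporter, had 20, 6 and 14 counts in control and 32, 27 and 27 in 25(OH)D (log2 fold change 1.24, SE 0.421, adjusted p = 0.0353). That call was lost when any 1 of 5 libraries was left out, with adjusted p-values up to 0.131, and with DESeq2 (adjusted p = 0.0740), in a range from 0.00932 to 0.193 over all alternatives. On RPKM with limma, 3 genes of the list were called higher with a pseudocount of 1 and 2 with 0.1. The shares over all genes in those fits, 33451 with no low-count filter, were 5.97% and 5.93%.

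Chondroitin sulfate, the other chain that syndecans can carry, had 5 synthesis genes called higher, 1 lower and 7 not called among 13 tested, with a median log2 fold change of 0.21. CHPF, a polymerising factor, went from 24.1 ± 0.515 to 39.1 ± 1.36 CPM (log2 fold change 0.69, SE 0.0606, adjusted p = 5.98e-07). CHST15, which adds a second sulfate to chondroitin, fell by 0.40 on the log2 scale from 31.7 ± 1.22 CPM (SE 0.0697, adjusted p = 4.00e-04), and DSE, the abundant epimerase of dermatan sulfate, rose by 0.21 from 184 ± 9.48 CPM (SE 0.0457, adjusted p = 0.00284, lost with limma on RPKM at 0.0815 to 0.0828). Of the other proteoglycan core proteins, 1 of 8 tested was called higher and 0 lower. This was NRP1, a co-receptor of semaphorins and VEGF that can carry a chain, with 390, 418 and 346 counts in control and 787, 826 and 642 in 25(OH)D (log2 fold change 1.09, SE 0.0908, adjusted p = 3.60e-07). AGRN (agrin), the most abundant of them, had 95.5 ± 9.26 and 108.0 ± 10.3 CPM with overlapping groups (adjusted p = 0.0781). It passed with DESeq2 (adjusted p = 0.0476) and without control library 1 (adjusted p = 0.00684). Over all alternatives its adjusted p ran from 0.00505, without the low-count filter, to 0.508.

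Partners of the cytoplasmic tail of syndecans were called in both directions. The share called higher was 18.2%, close to the 17.3% of all tested genes, and the share called lower was 27.3%, beside 16.5%. Of 11 tested, 2 were called higher, 3 lower and 6 not called, with a median log2 fold change of -0.11. CTTN (cortactin, an actin regulator) went from 2249 ± 75.8 to 2751 ± 45.6 CPM (log2 fold change 0.29, SE 0.0328, adjusted p = 8.09e-06) and EZR (ezrin, a link to actin) from 1908 ± 84.7 to 1691 ± 46.6 CPM (log2 fold change -0.17, SE 0.0373, adjusted p = 0.00219). Among proteases and lipases that can release syndecans and glypicans, 1 of 10 tested was called higher, 3 lower and 6 not called (median log2 fold change 0.052). ADAMTS1, a secreted metalloproteinase with thrombospondin motifs that can cut SDC4, had 1901, 1838 and 1661 counts in control and 776, 723 and 622 in 25(OH)D (log2 fold change -1.22, SE 0.0722, adjusted p = 9.73e-09). FURIN, the convertase that activates several sheddases, went from 14.2 ± 1.04 to 6.43 ± 0.128 CPM (log2 fold change -1.14, SE 0.0960, adjusted p = 4.14e-07). In both genes every treated library lay below every control library. ADAM10, a sheddase, rose by 0.27 on the log2 scale from 122.6 ± 1.57 CPM (SE 0.0408, adjusted p = 1.38e-04), and MMP15, the most abundant of the list, had a log2 fold change of 0.056 (adjusted p = 0.616).

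Of 26 ligands that bind heparan sulfate, 24 were listed and 14 tested, and 1 was called higher, 5 lower and 8 not called. Their median log2 fold change was -0.43. The rise was AREG (amphiregulin, a ligand of EGFR), with 162, 192 and 184 counts in control and 2968, 2899 and 2475 in 25(OH)D (log2 fold change 4.08, SE 0.0929, 16.9-fold, adjusted p = 3.27e-13). The falls were THBS1, TNC, VEGFA, BMP4 and SLIT3. THBS1 (thrombospondin 1), the most abundant of the list, went from 1344 ± 18.9 to 800 ± 10.7 CPM (log2 fold change -0.75, SE 0.0315, adjusted p = 2.12e-10). SLIT3, a guidance factor read through ROBO receptors, had 73, 72 and 81 counts in control and 12, 13 and 14 in 25(OH)D (log2 fold change -2.39, SE 0.288, adjusted p = 1.48e-05). ROBO1, one of these receptors, fell as well, from 71.2 ± 0.750 to 43.3 ± 0.419 CPM (log2 fold change -0.72, SE 0.0486, adjusted p = 4.04e-08).

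Of 15 tested receptors that work with syndecans or glypicans, 2 were called higher, 6 lower and 7 not called, with a median log2 fold change of 0.018. The rises were the integrin subunits ITGAV and ITGB5, partners of each other and of syndecans in adhesion to vitronectin. ITGAV went from 61.1 ± 2.72 to 78.4 ± 0.537 CPM (log2 fold change 0.36, SE 0.0496, adjusted p = 5.93e-05) and ITGB5 had a log2 fold change of 0.33 (adjusted p = 1.78e-04). The laminin-binding pair ITGA6 and ITGB4 fell, each by 0.53 on the log2 scale (adjusted p = 6.46e-05 and 9.79e-05), as did IGF1R (-0.48), PTPRS (-0.26) and PTPRF (-0.20). FGFR4, the most abundant receptor of the list, had 745 ± 25.3 CPM in control and 755 ± 44.2 CPM in 25(OH)D with overlapping groups (adjusted p = 0.785). Several genes named here share exon bases with a listed gene on the opposite strand, among them CHPF, DSE, NRP1, THBS1, ITGAV, UGDH, SLC26A2 and SLIT3. SLIT3 shares 334 bases with CTC-558O2.2 (39, 4 and 11 counts in control, 0, 0 and 0 in 25(OH)D). With CTC-558O2.1 (5, 12 and 22 in control, 8, 4 and 2 in 25(OH)D) it shares 216. Since the counting strand is not stated, reads in shared bases cannot be assigned to 1 gene of a pair. All adjusted p-values of the lists are from edgeR over all 18183 tested genes.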

How the data were processed

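Polyadenylated RNA of MDA-MB-453 cells was sequenced by the study as stranded paired-end libraries, 3 from cells with 100 nM 25(OH)D and 3 with solvent. The authors deposited read counts per gene without normalization, and a second table of RPKM, which equalled count over exon length and library total (largest relative difference 2.23e-13). The submitters' processing notes name Trimmomatic 0.36, featureCounts, Subread 1.5.1, edgeR 3.12.1 and GRCh38. The aligner and the strand setting are not given in the sources used here.

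From the counts, edgeR 4.0.16 was run with TMM factors, filterByExpr (minimum count 10), estimateDisp, glmQLFit and glmQLFTest on all 6 libraries without covariates. P-values are two-sided and adjusted by Benjamini-Hochberg over 18183 genes, and called under 0.05. The fit was first tested on simulated data. CPM use TMM-scaled totals. RPKM served for levels between genes. Medians and counts of lists stand beside those of all genes. No library pair within a group was a duplicate (chi-square per gene 4.01 to 12.1).

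The members and lists were chosen with earlier results of these data known. Named were all members, in each list the called genes with the smallest p in each direction, the most abundant gene and called genes past a log2 fold change of 1, the next rise after SDC3 and the 5 genes most like it (mean of at least 100 counts). Some genes of these are not reported here. Other genes given with a value belong to the same lists and were chosen after their values were seen.

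Alternatives were RLE and upper-quartile factors, library sizes alone, no filter, at least 1 CPM in 3 libraries, DESeq2 1.42.0, edgeR's exact test, limma 3.58.1 on log2(RPKM + 1) and log2(RPKM + 0.1), a replicate block, the study's limits, and each library left out. Promoter windows are RefSeq's (GRCh38.p14), and 8 of the 10 members were matched there. Protein sequences were not used here.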

Additional observations from a re-analysis of the deposited data

How the results depend on the processing

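Of 36 single genes, 24 kept direction and call in every one of 16 alternatives that tested them, the study's limits not among these. Scarce genes such as NDST4 and HS3ST3B1 were filtered out at 1 CPM in 3 libraries, so they could not be compared there. With 25(OH)D over control, SDC1 lost its call with limma on log2(RPKM + 1) (log2 fold change 1.38, adjusted p = 0.111) and log2(RPKM + 0.1) (1.41, adjusted p = 0.0967). Its adjusted p ran from 2.85e-187, in edgeR without the low-count filter, to 0.111, beside 0.00165 in the main edgeR fit. So small a p is not read as a measure of the spread between 3 libraries per group. The p-values of the fit without the filter are therefore not weighed, and the cause was not tested. For SDC3 the log2 fold change was 4.45 with library sizes alone, and 3.78 and 4.37 with limma at pseudocounts of 1 and 0.1.

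By the study's limits 1 member was called higher and 0 lower, against 4.02% and 2.63% of all tested genes. Higher and lower counts by list were 0 and 0 (linkage), 2 and 1 (sulfation), 1 and 0 (trimming) and 2 and 0 (donors). They were 0 and 0 (chondroitin), 1 and 0 (other core proteins) and 0 and 0 (cytoplasmic partners). The rest were 0 and 2 (shedding), 1 and 1 (ligands) and 0 and 0 (receptors). The fold limit removes small changes. NDST4 was 1 of the 2 higher in sulfation, HS3ST3B1 the 1 lower there, and SULF1 the 1 in trimming. All of these passed the low-count filter through 1 group only, so their calls carry no weight as tests. The 1 lower gene of the linkage list became 0 with DESeq2, both limma fits and the replicate block, and that of sulfation 0 at 1 CPM in 3 libraries, where HS3ST3B1 is filtered out. Limma with pseudocount 1 gave 3 higher genes in trimming, 3 in donors and 2 in chondroitin, and with 0.1 it gave 2 in donors and 2 in chondroitin. These fits called 1998 (5.97%) and 1984 (5.93%) of 33451 genes higher, with no low-count filter. The main fit called 3138 (17.3%) of 18183 filtered genes higher, so the percentages have unlike bases. Other core proteins had 2 higher without the filter and with DESeq2, and ligands had 2 higher without the filter and with the exact test. The cause of these was not tested.

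Leaving out 1 library gave log2 fold changes of 1.05 to 1.73 for SDC1, 0.85 to 0.93 for SDC2, 4.48 to 4.54 for SDC3, 0.70 to 1.01 for GPC1 and -0.69 to -0.55 for GPC4, and the calls of SDC1, SDC2, GPC1 and GPC4 were kept. It gave 0 to 1 lower linkage genes, 1 to 2 higher core proteins, 1 to 4 lower cytoplasmic partners and 1 to 2 higher ligands. Signs turned only in genes that were never called: SDC4 (-0.076 to 0.023 with 1 library left out), GPC2 (-0.043 to 0.38), FGFR4 (-0.024 with upper-quartile factors, -0.026 with library sizes, -0.026 and -0.027 with limma, -0.016 to 0.061 with 1 library left out), GUSB (-0.011, -0.014, -0.014 and -0.015, and -0.0028 to 0.091) and HS6ST2 (-0.027, -0.030, -0.027 and -0.030, and -0.0012 to 0.058).

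Same-numbered libraries had correlations of deviations of -0.0721, -0.0120 and -0.0460, and libraries of unlike number -0.0160 to 0.0628. These values show no sign of pairing by replicate number. They were taken over all tested genes with 3 libraries per group, so they cannot exclude it. A replicate block gave 3057 higher and 2896 lower genes against 3138 and 3004, kept the 3 higher members and the 1 lower, and left 0 lower linkage genes. Genes with few counts, such as GPC2, GPC3 and GPC6, are limited by depth.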
